A study of Macaca mulatta with 24 samples.

Results

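Fetal lung was set against fetal hippocampus in the same 8 Rhesus macaque fetuses, with 1 RNA-sequencing library per tissue and animal, so that 16 of the 24 libraries of the series are described here. The 16 libraries were taken by their tissue labels, and each lung library was paired with the hippocampus library of the same animal number. In 4 animals the mother had received the clinical treatment, which is betamethasone phosphate plus betamethasone acetate by intramuscular injection, 0.25 mg/kg in 2 doses 24 hr apart. In the other 4 the mother had received oral Beta-P, betamethasone phosphate given by mouth, 0.15 mg/kg in 3 doses 12 hr apart. All 8 fetuses were therefore exposed to a corticosteroid, and no untreated fetus is part of the comparison. They were delivered 5 days after the start of treatment, at 132 to 133 days of gestation with the clinical treatment and 127 to 132 days with oral Beta-P. Bulk polyA-selected RNA was sequenced from frozen tissue, which for the lung came from the lower lobes of the right side after the lung had been inflated with air. A lower level of a transcript can then come from fewer cells of a type or from less RNA per cell, and these cannot be told apart.

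The late fetal lung is built of an airway and alveolar epithelium in which type II cells make surfactant, of an extensive capillary endothelium and of matrix-forming mesenchyme. The hippocampus at this age holds excitatory and inhibitory neurons, astrocytes and radial glia, and the oligodendrocyte lineage. Both organs carry the glucocorticoid receptor, and antenatal corticosteroids are given for the lung while the brain is exposed with it. The deposited tables list Ensembl transcripts by identifier only and gene names were not assigned here, so the tissue labels were not checked against marker genes and the results are given for transcripts. Reads that transcripts of a gene share may have been divided between them, so a transcript's level is less certain than that of a gene.

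Each table gave a count for 45579 transcripts. The totals were 21088272 to 28641485 counts per lung library and 22537044 to 35254898 per hippocampus library, and the 16 libraries were all different, with counts that differed for at least 34139 transcripts in any pair. The libraries came from 3 sequencing runs that were not balanced over the tissues. Among these 16 libraries, the run that held both tissues had 6 lung and 3 hippocampus libraries, and the others held lung or hippocampus alone. In the oral animals all 4 lung libraries shared a run and all 4 hippocampus libraries shared another. Among the clinical animals only Lung411 and Hippocampus411 came from the same run. In every other animal the lung and hippocampus libraries came from different runs, so tissue and run cannot be told apart within those pairs. Levels are given below as normalized CPM (a read count relative to its library's total, the usual CPM unit, after scaling of the totals by the TMM method of edgeR).

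Of the listed transcripts 37747 had counts in both tissues, 1930 had counts in the lung only and 2591 in the hippocampus only, and 3311 had none in any of the 16 libraries. The libraries separated by tissue far more than by animal. Over the 500 transcripts that varied most, 97.4% of the squared distance between libraries lay between the tissues (exact permutation test over the 128 within-animal exchanges of tissue, one-sided, p = 0.00781, the lowest this design allows). The 500 were chosen by their spread over these same libraries, which favours a high share. Over all tested transcripts the share was 74.9%, with the same p from the exact permutation test. The root mean square distance per transcript on the log2 scale was 2.61 to 2.72 between the lung and hippocampus of one animal and 2.63 to 2.76 between those of different animals. Within the lung it was 1.06 to 1.18 and within the hippocampus 0.930 to 1.15.

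Which transcripts differed between the organs was tested for the 31167 with enough counts. Transcripts were called where they differed 1.5-fold or more with p below 0.05 and q below 0.1 in edgeR's quasi-likelihood test, which had the animal as a block. The lung was higher in 8738 transcripts (28.0% of those tested) and the hippocampus in 9624 (30.9%), so that 58.9% of the tested transcripts differed. In 6513 of the first and 7336 of the second the 8 libraries of one tissue lay entirely above the 8 of the other. Over all tested transcripts the lung lay above in 23.4% and below in 25.7%, which together made 49.0%. The median log2 fold change of the tested transcripts was -0.03. Without the TMM scaling it was 0.17, and the calls then split into 10338 higher in the lung and 8414 higher in the hippocampus, so which tissue had more higher transcripts depended on the scaling.

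**Figure D1:**
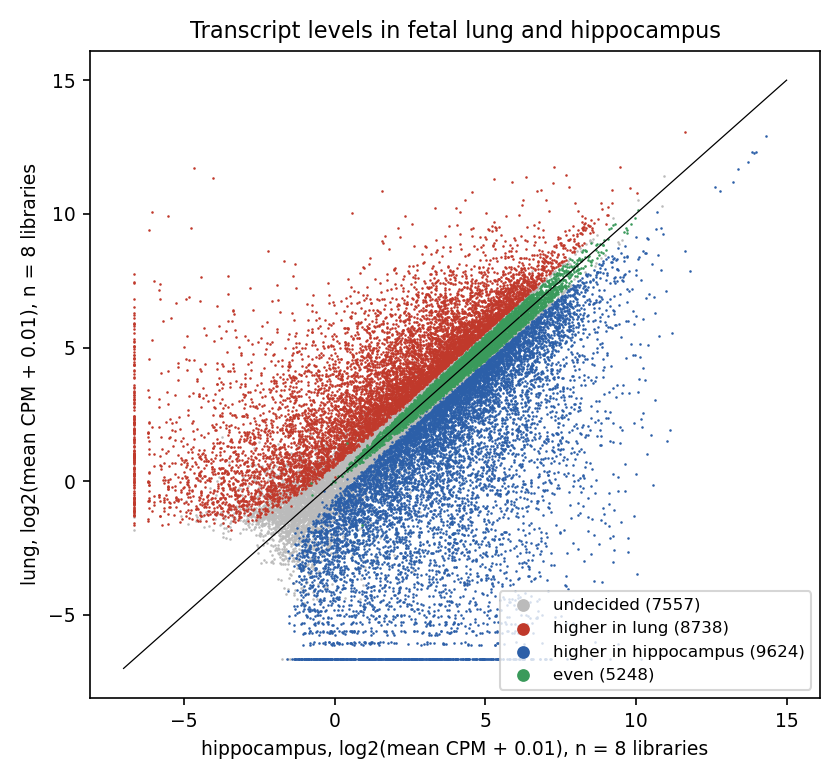
Each point is a tested transcript, with its mean level over the 8 hippocampus libraries on the x axis and over the 8 lung libraries on the y axis, both as log2 of mean CPM plus 0.01. Red marks the 8738 transcripts higher in lung, blue the 9624 higher in hippocampus, green the 5248 even ones and grey the 7557 undecided ones, and the lines of points at the left and lower edges are transcripts with no counts in one tissue.

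With TMM scaling, the differences toward the hippocampus reached further than those toward the lung. For this description counts under 3 were raised to 3, so that a transcript with no counts in a tissue gives a lower bound. The median log2 difference of the called transcripts was 1.61 for those higher in the lung (interquartile range 0.99 to 2.80) and -1.97 for those higher in the hippocampus (-3.71 to -1.10). A difference of at least 4-fold was reached by 3450 transcripts higher in the lung and by 4746 higher in the hippocampus. At 16-fold the numbers were 1015 and 2161 and at 64-fold 267 and 952. The lower tissue had at most 3 counts in every library for 419 of the lung transcripts and for 1002 of the hippocampus transcripts. These numbers use raw counts, and most lung libraries were less deep, which favours the hippocampus number. Without TMM scaling the median log2 fold change of the tested transcripts was 0.17 and not -0.03. The sizes given here were not computed without that scaling.

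Abundance was linked to how often a transcript differed. Transcripts were grouped by their mean CPM in the tissue where they were more abundant. Below 1 CPM, 17.9% of 3690 transcripts were higher in the lung, 17.7% were higher in the hippocampus, and 64.3% were undecided, with a median standard error of 0.82 on the log2 scale. Between 10 and 100 CPM, 29.7% of 13254 were higher in the lung and 31.7% in the hippocampus, and the median standard error was 0.09. Above 1000 CPM, 38 of 100 transcripts were higher in the lung and 57 in the hippocampus. The standard error was thus largest for the scarcest transcripts, and nearly all transcripts of the top group differed between the organs. A transcript high in a single organ enters the top group through that organ, so the grouping itself favours differences there.

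A transcript that was not called is not shown to be alike in both organs, so the reverse was also asked. In 5248 transcripts, or 16.8%, the 95% interval of the fold change lay wholly within 1.5-fold in both directions, and these are called even. They had a median of 22.9 CPM over both tissues. The remaining 7557 transcripts, or 24.2%, were neither called nor even, with a median of 1.84 CPM and a median standard error of 0.34. The even transcripts were most frequent between 10 and 100 CPM, where they made up 27.0%. Only 2 of the 100 transcripts above 1000 CPM were even, in a grouping that favours differences in that range.

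When the counts of each library were divided among these classes, the profile of each organ was similar in all its 8 libraries. Transcripts higher in the lung took 49.3% to 51.3% of the counts of a lung library (median 50.7%) and 11.9% to 13.6% of a hippocampus library. Transcripts higher in the hippocampus took 57.3% to 61.1% of a hippocampus library (median 59.7%) and 16.3% to 18.5% of a lung library. The classes were chosen on the same libraries, so these shares are a description. The even transcripts took a median of 22.6% of the lung counts and 19.6% of the hippocampus counts.

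**Figure D2:**
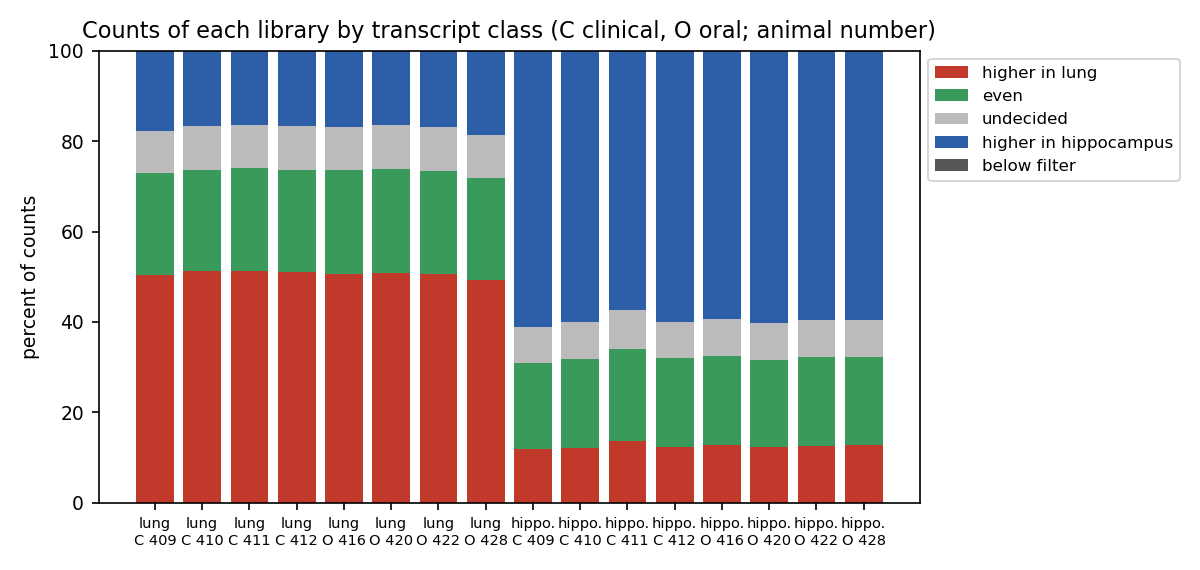
Each bar is a library, named by tissue, treatment (C clinical, O oral) and animal number, and its colours show the percent of its counts in transcripts higher in lung, even, undecided, higher in hippocampus or below the filter on low counts. The red part spans 49.3% to 51.3% in the 8 lung libraries and 11.9% to 13.6% in the 8 hippocampus libraries, and the part below the filter is at most 0.108%.

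The counts of the hippocampus were concentrated in fewer transcripts. The 10 most abundant transcripts of a library took 4.89% to 6.43% of the lung counts (median 5.07%) and 9.21% to 12.4% of the hippocampus counts (median 10.7%). The mean difference of lung minus hippocampus was -5.59 ± 0.98 percentage points (SD, n = 8 pairs), and the lung was lower in 8 of 8 animals (exact permutation test over exchanges within animals, two-sided, p = 0.00781, the lowest this design allows). Within the run that held both tissues the 6 lung libraries had 4.89% to 6.43% and the 3 hippocampus libraries 9.21% to 12.4%. These 3 were all clinical while 4 of the 6 were oral, and 1 animal was on both sides, so no test is given for them. The most abundant transcripts that together held 50% of the counts numbered 1456 to 1578 in the lung and 1177 to 1353 in the hippocampus, without overlap between the tissues.

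Much of this concentration lay in a few transcripts that led both organs. The lists of the 10 most abundant transcripts by mean CPM shared 6 members. The 6 took 2.75% to 4.33% of the counts of a lung library and 7.22% to 9.46% of a hippocampus library, and all 6 were higher in the hippocampus, by log2 fold changes of -1.42 to -1.82 (standard errors up to 0.10, edgeR adjusted p at most 1.0e-06). The 6 were left out after the data were seen, and as all were higher in the hippocampus this by itself shrinks the difference. With the 6 left out, the 10 most abundant transcripts took 3.74% to 4.15% in the lung and 3.61% to 4.79% in the hippocampus, and the mean difference was -0.30 percentage points (two-sided exact permutation test, p = 0.0625). The 100 most abundant then took 13.9% to 14.6% in the lung and 13.5% to 14.9% in the hippocampus. Their mean difference was 0.0383 ± 0.404 percentage points (SD, n = 8 pairs; two-sided exact permutation test, p = 0.836), where with the 6 included it had been -4.45. The number of transcripts that held 50% of the counts was still higher in the lung in 8 of 8 animals, by 71 on average (two-sided exact permutation test, p = 0.00781).

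Below these leaders the lists diverged. The 100 most abundant transcripts of the organs had 22 in common and the 1000 most abundant had 375 in common. Of the 100 most abundant in the lung, 76 were called higher in the lung, 12 higher in the hippocampus and 8 were even. Of the 100 most abundant in the hippocampus, 87 were called higher in the hippocampus, 3 higher in the lung and 7 were even. These calls are to be read beside the 28.0% and 30.9% of all tested transcripts, and the lists were made from the same libraries.

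More transcripts were detected in the hippocampus. To remove the effect of depth, the number of transcripts with at least 1 count was computed as the number expected if each library held the lowest total, 21088272 counts. It was 32300.3 to 32855 in the lung (median 32692) and 33133 to 33787 in the hippocampus (median 33479), and the tissues did not overlap. The mean difference of lung minus hippocampus was -806 ± 464 (SD, n = 8 pairs), with the lung lower in 8 of 8 animals (two-sided exact permutation test, p = 0.00781). Within the run that held both tissues it was 32300.3 to 32824 in the 6 lung libraries and 33133 to 33309 in the 3 hippocampus libraries, with treatments unequal as above. With at least 10 counts required the mean difference was -683, with the lung lower in 8 of 8 animals (two-sided exact permutation test, p = 0.00781). The tissues then overlapped, with 26444 to 27039 in the lung and 27013 to 27688 in the hippocampus.

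At 1 count the size of this gap did not overlap between the treatments. In the lung the 4 clinical libraries had 32813 to 32855 detected transcripts, all above the 4 oral Beta-P libraries with 32300.3 to 32570.0. In the hippocampus the order was the opposite, with 33133 to 33309 in the clinical libraries and 33648 to 33787 in the oral Beta-P libraries. The difference of lung minus hippocampus was -379 on average with the clinical treatment and -1232 with oral Beta-P (exact permutation test over the 8 animals, two-sided, p = 0.0286, the lowest this design allows). It did not pass the correction for the 15 measures compared in this way (Benjamini-Hochberg adjusted p = 0.143). With at least 10 counts the difference was -833 to -119 in the clinical and -1034 to -694 in the oral animals, which overlap (two-sided exact permutation test, p = 0.0571), and the treatments overlapped in each tissue as well. Depth moved with the treatments in the same directions, since the total was 22519902 to 28641485 counts in the clinical and 21088272 to 22312791 in the oral lung libraries, and 22537044 to 32788826 in the clinical and 32836217 to 35254898 in the oral hippocampus libraries. Sequencing run and gestational age also differed between the treatments. The clinical library Hippocampus412 shared the run of the 4 oral hippocampus libraries and had 33254 detected transcripts, from a total of 32788826 counts. The clinical libraries Lung411 and Lung412 shared the run of the 4 oral lung libraries and had 32824 and 32813. The part of depth, run and gestational age in the gap was not tested.

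**Figure D3:**
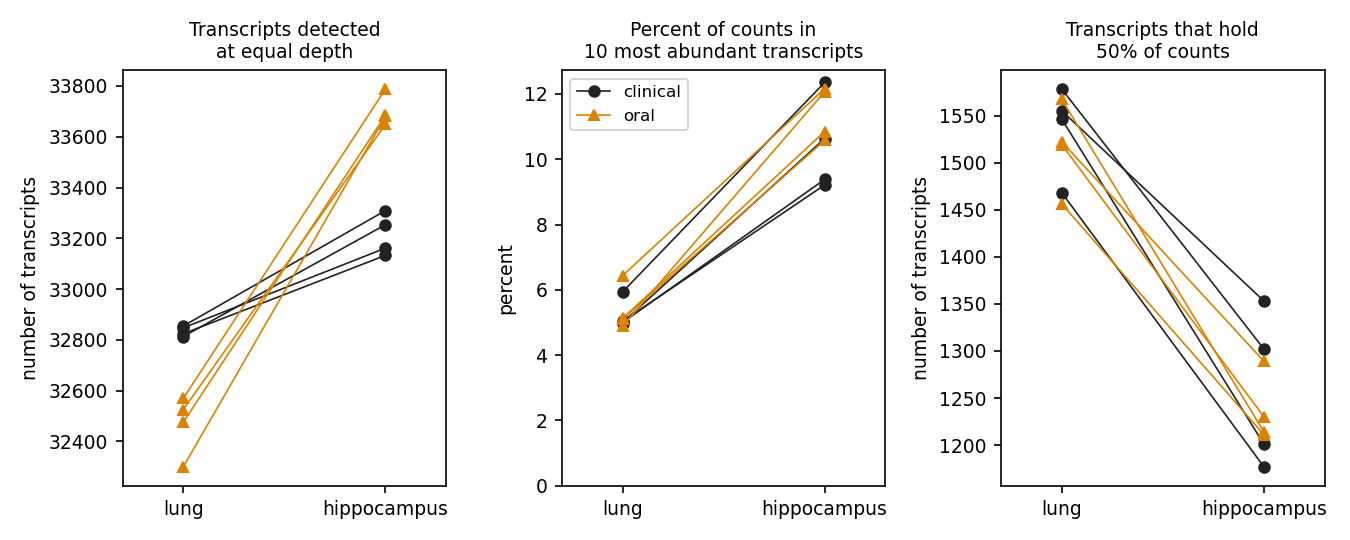
Lines join the lung and hippocampus library of an animal, with black circles for the clinical treatment and orange triangles for oral Beta-P. From left to right the y axes show the number of transcripts detected at 21088272 counts, the percent of counts in the 10 most abundant transcripts, and the number of transcripts that hold 50% of the counts, and in each panel the 8 lung values do not overlap the 8 hippocampus values.

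Some transcripts were found in one organ and not in the other. A transcript was called restricted when it had at least 20 counts in each of the 8 libraries of a tissue and at most 3 counts in each of the 8 of the other. The lung had 164 such transcripts and the hippocampus 624. The numbers depend on the limits, and were 83 and 298 when no count was allowed in the other tissue, and 85 and 391 when at least 100 counts were required. The rule uses raw counts and the hippocampus libraries were deeper. With all counts scaled to the lowest total, an alternative added after the data were seen, the numbers were 174 and 585. The lung-restricted transcripts took 0.869% to 1.28% of the lung counts, and the hippocampus-restricted transcripts took 1.61% to 1.82% of the hippocampus counts. Their median level in the organ of origin was 8.42 CPM in the lung and 9.80 CPM in the hippocampus, and 17 and 30 of them, respectively, were above 100 CPM. At the edge of the rule, 28 lung-restricted transcripts had 3 counts as their highest value in the hippocampus, and 25 transcripts were left out because it was 4. For the hippocampus the numbers were 106 and 65.

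The most abundant restricted transcript of each organ is described as well, and the choice of these was made after the values were seen. The leading lung-restricted transcript had 2242 to 4288 CPM in the lung (median 3594), from 53189 to 112532 counts per library. In the hippocampus 4 of 8 libraries had no count and the highest had 2, so that the lung was at least 30633-fold higher with a floor of 3 counts per library. The leading hippocampus-restricted transcript had 1041 to 1297 CPM in the hippocampus (median 1147), from 22620 to 41454 counts. All 8 lung libraries had 0 counts of it, and the hippocampus was at least 9572-fold higher.

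By the rule for naming, 2 transcripts were described in each direction, the most abundant one with a difference of at least 4-fold and the one with the smallest p-value. ENSMMUT00000044336.2 was the most abundant with such a difference in the lung. Its level was 2814 to 3959 CPM in the lung (median 3599) and 109 to 191 CPM in the hippocampus (median 156). The lowest lung library stood far above the highest hippocampus library. The log2 fold change was 4.50 with a standard error of 0.09 and an adjusted p of 1.6e-09 (edgeR). Its difference on the log2 scale was 4.54 to 5.08 in the clinical animals and 4.01 to 4.49 in the oral animals. These did not overlap (two-sided exact permutation test, p = 0.0286, the lowest this design allows, and 0.143 after Benjamini-Hochberg adjustment over 15 measures). The lung levels overlapped, with 3381 to 3959 CPM in the clinical and 2814 to 3691 CPM in the oral animals. In the hippocampus they were 109 to 148 CPM and 165 to 191 CPM. The test of the interaction across all transcripts gave a difference of -0.55 with a standard error of 0.16 and an adjusted p of 0.735 (edgeR), so that this transcript was not called. ENSMMUT00000024790.3 had the smallest p-value among those higher in the lung, with 405 to 518 CPM in the lung (median 485) and 2.51 to 3.71 CPM in the hippocampus (median 3.02). Its log2 fold change was 7.30 with a standard error of 0.07 and an adjusted p of 2.8e-10 (edgeR).

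Toward the hippocampus, ENSMMUT00000038280.2 was the most abundant, with 7042 to 11521 CPM in the hippocampus (median 9518) and 1860 to 3185 CPM in the lung (median 2211). It was above 1000 CPM in all 16 libraries. Its log2 fold change was -2.03, with a standard error of 0.08 and an adjusted p of 4.7e-08 (edgeR), and it thus lay just past the 4-fold limit of the rule. It fell short of that limit without TMM scaling (-1.83), within the run that held both tissues (-1.89) and with run as a covariate (-1.99). ENSMMUT00000012406.3 had the smallest p-value of all tested transcripts. Its level was 424 to 514 CPM in the hippocampus (median 451), from 9810 to 15993 counts per library, and 0.248 to 0.464 CPM in the lung (median 0.347), from 6 to 11 counts. The log2 fold change was -10.32 with a standard error of 0.07 and an adjusted p of 1.0e-10 (edgeR). In all 4 transcripts the libraries of the tissues did not overlap, a property that the choice by abundance or p-value favours.

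**Figure D4:**
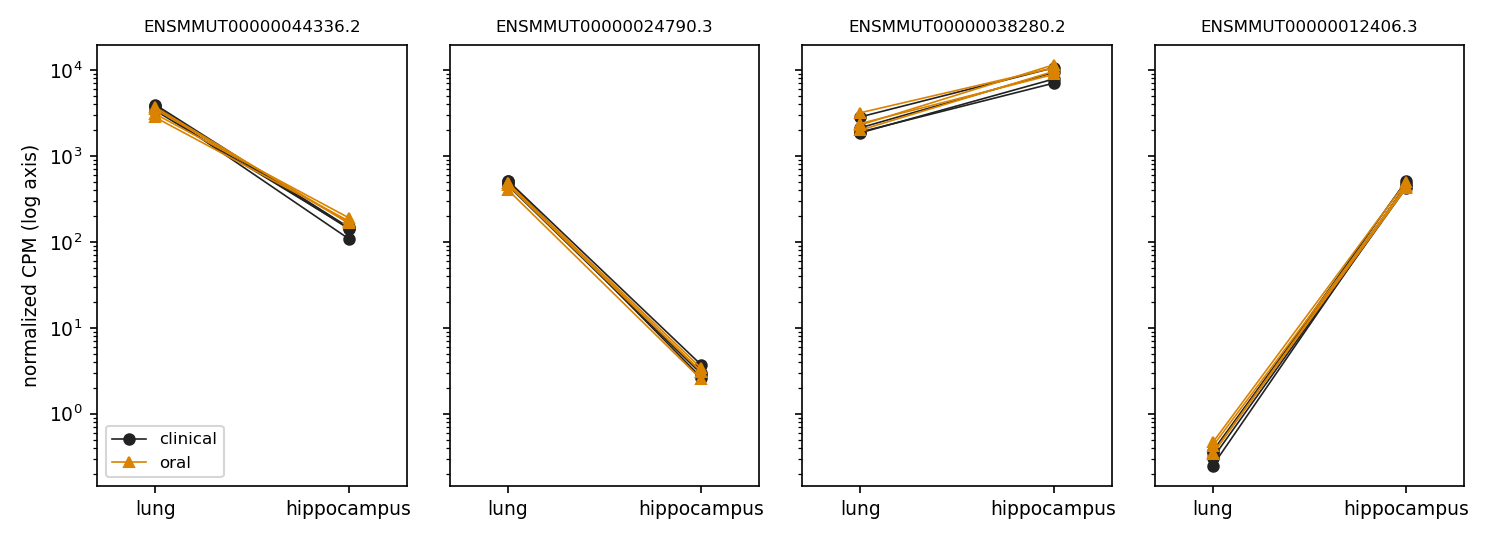
Normalized CPM on a log axis of the 4 transcripts named by the rule, with a line for each animal joining its lung and hippocampus library (black circles clinical, orange triangles oral Beta-P). The lines of all 8 animals slope the same way in each panel, from 2814 to 3959 CPM in lung down to 109 to 191 in hippocampus in the first and from 0.248 to 0.464 up to 424 to 514 in the last.

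The tissue difference was then taken within each treatment, because the treatments hold different animals. In the 4 clinical animals 17155 transcripts were called (55.0% of those tested) and in the 4 oral animals 17165 (55.1%) with the same edgeR fit. With run as a covariate and no animal block the numbers were 16353 and 13814. In that fit the effect of run in the oral animals rested on 1 clinical library, Hippocampus412, set against the other clinical hippocampus libraries. Of the transcripts called in the clinical animals 99.2% had the same direction in the oral animals and 88.0% were called there too. Across the 31167 transcripts the fitted log2 differences of the treatments correlated with Pearson's r of 0.918 and Spearman's rho of 0.906, which describes transcripts and not replicates. These values came from a single fit that shared its estimate of the spread. When each treatment was fitted alone, 28221 transcripts were tested in both, 15874 were called in the clinical animals, and 14117 of these, or 88.9%, were called in the same direction in the oral animals.

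In the joint fit 13 transcripts were called in opposite directions with the treatments. Of these 8 had no counts in at least 1 library, 7 had no counts in 8 or more of the 16 libraries, and 3 had 20 counts or more throughout. Their adjusted p-values for the interaction were 0.433 to 0.805 (edgeR), and with the treatments fitted alone 3 transcripts had opposite calls. None of the 13 was therefore shown to differ between treatments.

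**Figure D5:**
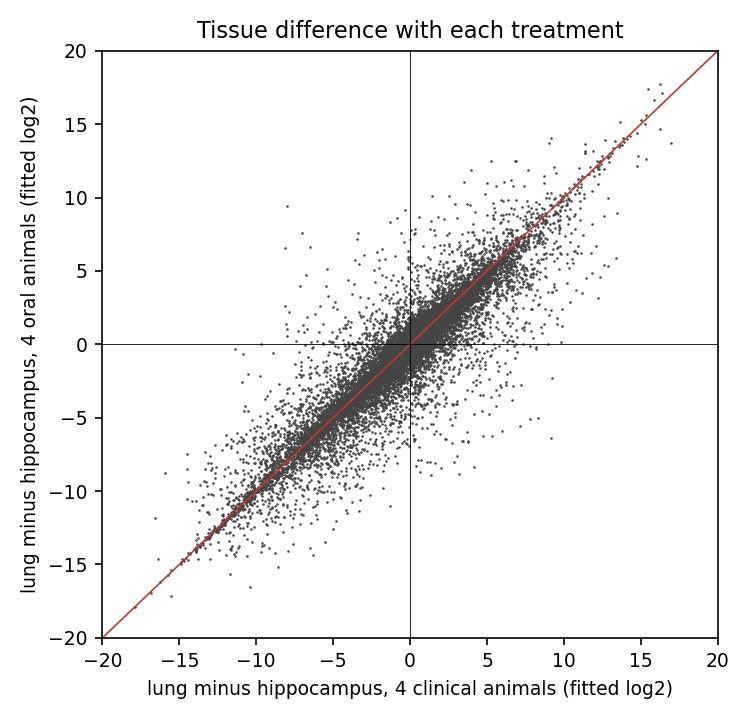
Each of the 31167 points is a tested transcript, with the fitted log2 difference of lung minus hippocampus in the 4 clinical animals on the x axis and in the 4 oral Beta-P animals on the y axis, and the red line marks equal differences. The points follow the line with a Pearson's r of 0.918, and those far from it include transcripts with no counts in many libraries.

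Whether the contrast between the organs differed between the treatments was tested directly by the interaction of tissue and treatment. The sequencing runs of the pairs and the gestational age also differed between the treatments, so these cannot be told apart from treatment in this test. No transcript was called by edgeR (0 of 31167, 0%). The smallest adjusted p was 0.103, and 1837 transcripts, or 5.89%, had an unadjusted p-value below 0.05. With 4 animals per treatment the median difference between treatments was 0.25 on the log2 scale, below the median standard error of 0.32. In 8752 transcripts, or 28.1%, the 95% interval of the interaction lay within 1.5-fold, so that for these a larger change was outside the interval. Among the 15828 transcripts whose mean log2 CPM was 3 or more this held for 53.0%. The difference between tissues did not overlap between the 4 clinical and the 4 oral animals in 1376 transcripts (4.41%). The count of called transcripts depended on the test, since DESeq2 called 222, of which 122 had no library below 10 counts. In 197 of the 222 the unadjusted p-value of edgeR was below 0.05 with the same direction. Without the animal block edgeR called 12. When the animal of the libraries Lung428 and Hippocampus428 was left out it called 1.

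The spread between animals was slightly larger in the lung. The median over transcripts of the standard deviation among the animals of a treatment was 0.31 in the lung and 0.27 in the hippocampus on the log2 CPM scale, and the lung had the larger value in 56.8% of the tested transcripts. Among the 11525 transcripts whose mean log2 CPM was 3 or more in both organs the medians were 0.16 and 0.14, and the lung was larger in 57.2%. The difference was not tested. Most lung libraries were less deep, and counting error was not separated from the spread between animals.

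The deviations of each library from the mean of its group were also compared between the organs. Their correlation across all tested transcripts was 0.0638 to 0.159 for the lung and hippocampus of the same animal (mean 0.0992, 8 pairs) and at most 0.0413 for different animals of the same treatment (24 pairs). Over the 11525 abundant transcripts it was 0.129 to 0.410 for the same animal (mean 0.274) and at most 0.125 for different animals. Taking deviations from a mean of 4 lowers the values between different animals, so these are given as a description. Some transcripts were present in some animals and absent from others. With absence set at 3 counts or fewer and presence at 20 or more, each in at least 2 libraries, 1737 transcripts were of this kind in the lung and 1783 in the hippocampus. The 532 that were so in both were 30.6% of the lung list and 29.8% of the hippocampus list. For these, the states of the organs matched in 56.1% of 3292 comparisons within an animal, from 51.6% to 59.9% by animal, and in 50.9% of 23109 comparisons between different animals. Of the 135 with a definite state in all 16 libraries, 14 had the same state in both organs of all 8 animals, and 0 of these followed the treatment.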

How the data were processed

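PolyA-selected RNA of fetal lung and hippocampus was sequenced with paired ends. The authors aligned reads to the macaque build MMUL1.0 with STAR, and the submitters' processing notes also list featureCounts and DESeq2. The annotation release and the treatment of reads shared by transcripts are not given in the sources used here. The authors deposited whole counts per Ensembl transcript without normalization, 1 table per tissue with the same transcripts, and whether the whole numbers are rounded estimates is not stated. All 16 columns were matched to libraries by name. The liver table was not used here. Every entry of the tables names a transcript.

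Libraries of both tissues were normalized together (TMM) after edgeR's filterByExpr, and the quasi-likelihood model of edgeR 4.0.16 (with limma 3.58.1 under R 4.3.3) was fitted with the animal as a block and a tissue difference within each treatment. The contrast was the mean of both differences, and the interaction was their difference. Adjustment followed Benjamini and Hochberg, with the study's thresholds of a fold change of 1.5, p below 0.05 and q below 0.1. Standard errors were derived from the F statistic. The test was also run on simulated counts in which only a small share of transcripts differed between the tissues. That setting is unlike these data, where 58.9% were called, so no support is drawn from it. Same-numbered libraries were taken to come from the same fetus by the number in their names. Their deviations from the group means correlated by at least 0.0638 over all tested transcripts, against at most 0.0413 for different animals. Over the 11525 with a mean log2 CPM of 3 or more in both tissues these values were 0.129 and 0.125. Taking deviations from a mean of 4 lowers the values between different animals, so the pairing rests on the numbers. Labels do not number further replicates, so each animal is 1 replicate.

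Transcripts to be named were, in each direction, the most abundant with a fold change of at least 4 and that with the smallest p-value, and the 2 leading restricted transcripts were added after their values were seen. The comparison and its rules were chosen with earlier results of these data known. Prepared lists of genes and cell type markers were not used because transcripts carry no gene names here, and no sequence is shown for the same reason. The libraries held 21088272 to 35254898 counts, and the median standard error of the log2 fold change was 0.82 for transcripts below 1 CPM, where counting error and spread between animals were not separated. Floors cover counting error only. Alternatives were DESeq2 1.42.0, RLE or no scaling, other filters and thresholds, no replicate block, 1 sequencing run alone, run as a covariate, and each animal left out in turn.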

Additional observations from a re-analysis of the deposited data

Results flagged for a closer look

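Library measures and the levels of the named transcripts were checked within the groups of 4 libraries, which made 56 checks, and in 8 of these a single library lay far from the other 3. Chance gives about 1 in 20, or 2.80 of 56, but the measures are related and the checks are not independent. In the lung, the oral library Lung420 held the fewest counts, 21088272 against 22106541 to 22312791 in the other oral libraries, and the largest share of counts in lung-restricted transcripts, 1.25% against 0.869% to 0.923%. In the clinical library Lung409 the 10 most abundant transcripts held 5.94% of the counts against 4.99% to 5.03% in the other clinical lung libraries, and the 100 most abundant held 17.5% against 16.3% to 16.4%. In the oral library Lung428 the 10 most abundant held 6.43% against 4.89% to 5.13%, the transcripts detected with at least 10 counts at equal depth numbered 26444 against 26654 to 26696, and transcripts higher in the lung held 49.3% against 50.6% to 50.7%. In the hippocampus, ENSMMUT00000044336.2 had 109 CPM in the clinical library Hippocampus412 against 142 to 148 CPM.

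The difference of lung minus hippocampus itself differed between oral and clinical animals in 3 of 15 measures (two-sided exact permutation test, p = 0.0286 each, the lowest this design allows, and 0.143 after Benjamini-Hochberg adjustment over the 15). The oral minus clinical value was -10998387 counts for the library total, -853 for the transcripts detected at equal depth and -0.55 on the log2 scale for ENSMMUT00000044336.2. In each the 4 oral animals lay below the 4 clinical animals.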

How the results depend on the processing

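Over the 19 alternatives to the tissue comparison, 18362 called transcripts became 15937 (run as a covariate without the block) to 23032 (no fold change threshold), apart from a fold change of at least 4, which gave 8888 calls (3728 higher in lung, 5160 higher in hippocampus), and at least 10 counts in every library, which tested 20762 transcripts and gave 11726 (5859 and 5867). Without the replicate block 18510 were called, and 98.1% of the 18362 were called in the same direction. Within the run of 6 lung and 3 hippocampus libraries 17193 were called, which included 89.4% of the 18197 calls that were tested there. That fit held tissue alone, although the treatments were unequal between the tissues and an animal was on both sides, so treatment is mixed into it. With each animal left out the count was 18042 to 18271. With DESeq2 it was 19905. Run as a covariate left 80.8% of the 18362 calls, put 12 on the opposite side and reduced the even transcripts from 5248 to 3089. The cause was not tested, and in that fit the effect of run in the oral animals rested on 1 clinical library, Hippocampus412.

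The interaction gave 0 calls, and 2 with at least 10 counts in every library, 12 with no replicate block, 32 with run as a covariate and no block, 222 with DESeq2, and 0 to 1 with each animal left out. Leaving out the block moved no other count of calls by more than 1.5 times. The interaction was not fitted within a single run, and the 32 calls with run as a covariate depend on Hippocampus412 in the same way. Without the 6 transcripts in both lists of the 10 most abundant, an alternative chosen after seeing the data, the differences of the shares were -0.30 (top 10) and 0.0383 (top 100) percentage points. Restricted transcripts numbered 83 in lung and 298 in hippocampus with a floor of 0 counts, and 85 and 391 with at least 100 counts. The median spread between animals was 0.16 in lung and 0.14 in hippocampus for transcripts with a mean log2 CPM of at least 3. The 4 named transcripts kept their direction and call in all alternatives that tested them. Of the transcripts below 1 CPM 64.3% were undecided.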
